A study of Homo sapiens with 8 samples.

Results

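The apolipoprotein L (APOL) genes examined here are the protein-coding rows of the deposited expression table whose symbol is APOL followed by a single digit. This rule found 5 of the 16525 genes in the table, namely APOL1, APOL2, APOL3, APOL4 and APOL6. They were measured by strand-specific mRNA sequencing in EndoC-βH5 cells, a commercial human beta-cell line that originates from fetal pancreas and from which the immortalizing transgenes have been removed. Control cells were left untreated for 48 h, and cytokine-exposed cells received a mix of 3 cytokines for the same time, with IL-1β at 50 U/mL and both IFNγ and TNFα at 1000 U/mL. Each group had 4 libraries. All 8 libraries come from the same cell line, the 3 cytokines were always given together, and the labels do not say whether the 4 cultures of a group were independent, so p-values measure the spread between these libraries, which may be technical.

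The APOL genes form a cluster on human chromosome 22. APOL1 is the secreted member, which circulates with high-density lipoprotein and lyses trypanosomes by inserting into their membranes, whereas most other members act inside the cell. Several of them are known to be induced by interferons, and the proteins share helices that bind lipids and membranes.

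All values are CPM, the reads of a gene scaled to the library total, and 100% of them were whole reads. The libraries held 36577438 to 40117636 reads on listed genes, and 1 read was worth 0.0196 to 0.0214 CPM. The column names pair each control library with a cytokine library, and these pairs are called A, B, C and D. A and B share an ending of their names and so do C and D, and both sets are given separately where a result could rest on them. All 12 beta-cell markers examined were listed, among them INS, at 2169 ± 744 CPM in control and 1846 ± 322 CPM in cytokine-exposed cells (SD, n = 4). Of the 5 endothelial markers 0 were listed in the table, which holds only genes that passed its filter. Values were analysed for CD14 of 6 leukocyte and macrophage markers (1.07 to 3.26 CPM in control and 1.23 to 1.95 CPM in cytokine libraries) and for COL1A1 of 5 fibroblast markers (0.0635 to 0.449 and 0.0427 to 0.844 CPM). Of the 12 beta-cell markers 7 were called lower in cytokine-exposed cells, where 17.5% of all genes were, and their median log2 fold change was -0.59. Other fits, described below, called 1 higher and 6 lower with TMM scaling, 2 and 5 with edgeR, and 3 and 5 with DESeq2. Of all 16525 genes these fits called 2154 and 1933, 2149 and 1918, and 2360 and 2143 in that order. With the library pairs as a block the counts were 1 and 7, where 1917 and 3935 of all genes were called. The summed level of the 12 markers was 24864 to 37573 CPM in control and 29574 to 53398 CPM in cytokine libraries. Most of it came from CHGA (19221 ± 3843 and 25501 ± 7243 CPM) and IAPP (4102 ± 1844 and 7787 ± 3443 CPM), which were not called in limma without a block. With the block IAPP was called higher (adjusted p = 3.52e-09, limma). The 4 other islet markers were listed too (463 to 2177 and 553 to 1996 CPM in sum), as were 2 of 7 exocrine and duct markers (88.2 to 167 and 84.6 to 166 CPM in sum). The part of these markers in the results was not tested. In bulk samples fewer cells of a type and less RNA per cell cannot be told apart.

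All 5 APOL genes that passed the filter of the table were upregulated by cytokines. A gene was called changed when its fold change on the log2(CPM + 0.1) scale passed 0.5 in size with an adjusted p below 0.05 (limma, Benjamini-Hochberg adjustment over all 16525 genes), and 9.52% of all genes were called higher by this rule. That is 1574 genes called higher, against 2896 called lower. With TMM scaling, which moves the median change of all genes from -0.17 to -0.02 on the log2 scale, 2154 genes (13.0%) were called higher and 1933 lower, and the 5 APOL genes remained called. In each of the 5 genes every cytokine library lay above every control library, which was so for 10.8% of all genes. The table lists genes at 0.5 CPM or more in at least 4 samples. Every control library was below this level for APOL4, and every one except control library A for APOL3. Among the 8 libraries these genes met the filter through the cytokine libraries. Their higher values there were therefore in part selected by the filter, and their calls are not independent of it. For APOL1, APOL3 and APOL6 the log2 fold change was above 5, a size reached by 0.485% of protein-coding genes.

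APOL1, the secreted member, had the largest estimated fold change of the family, although its difference from APOL3 did not pass the test given with the ratios. Its level was 2.72, 2.54, 3.62 and 3.50 CPM in control libraries A to D, from 127, 120, 182 and 179 reads. In cytokine libraries A to D it was 215, 200, 350 and 253 CPM. The groups did not overlap, and the lowest cytokine library was far above the highest control library. The means were 3.09 ± 0.546 and 255 ± 67.4 CPM (SD, n = 4), an 82.2-fold difference. In limma this was 6.30 ± 0.19 (SE) on the log2 scale, with an adjusted p of 3.08e-09. Within the pairs the log2 difference was 6.26, 6.24, 6.55 and 6.14. Among 13401 protein-coding genes this change had rank 34 from the top.

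APOL6, an intracellular member that has been linked to mitochondrial cell death when overexpressed, rose from a low level in every library. Control libraries A to D held 6.52, 9.23, 9.18 and 9.33 CPM, from 305 to 477 reads. Cytokine libraries A to D held 268, 272, 319 and 295 CPM. The groups did not overlap, and control library A was lower than the other controls, which lay close together. The means were 8.56 ± 1.36 and 288 ± 23.5 CPM (SD, n = 4), a 33.7-fold difference. The log2 fold change in limma was 5.07 ± 0.14 (SE), with an adjusted p of 1.41e-09. It had rank 63 among the protein-coding genes.

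APOL3, which is an interferon-induced protein that can act on the membranes of intracellular bacteria, had few reads in control cells. It had 32, 6, 5 and 6 reads in control libraries A to D, equal to 0.684, 0.127, 0.0995 and 0.117 CPM. In cytokine libraries A to D it had 569, 666, 806 and 774 reads, equal to 12.1, 14.2, 16.2 and 15.6 CPM. The groups did not overlap, but control library A stood above the other controls and cytokine library A was the lowest of its group. APOL3 thus rose by 5.62 ± 0.40 (SE) on the log2 scale, with an adjusted p of 2.48e-06 in limma and rank 49 among the protein-coding genes. Without control library A it was 6.08, and within the pairs it was 3.96, 5.98, 6.35 and 6.17. The size of this change depends on the constant added before taking logarithms and was 3.64 with 1 CPM in place of 0.1 CPM.

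APOL2, an intracellular member found at the endoplasmic reticulum, was the one with a substantial level before treatment. Control libraries A to D held 32.1, 35.8, 48.0 and 43.7 CPM, from 1503 to 2413 reads. Cytokine libraries A to D held 213, 215, 268 and 232 CPM. The groups did not overlap, and C and D were the highest libraries of both groups. The means were 39.9 ± 7.26 and 232 ± 25.2 CPM (SD, n = 4), a 5.81-fold difference. The limma estimate was 2.55 ± 0.15 (SE) on the log2 scale, with an adjusted p of 4.66e-07. This change had rank 221 among the protein-coding genes.

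APOL4 had the smallest rise and remained near the lower limit of the table after treatment. It had 8, 22, 7 and 12 reads in control libraries A to D, equal to 0.171, 0.466, 0.139 and 0.235 CPM. Cytokine libraries A to D had 44, 37, 41 and 55 reads, equal to 0.937, 0.790, 0.825 and 1.11 CPM. The groups did not overlap, although control library B came closer to the cytokine libraries than the other controls did. Its rise in limma was 1.60 ± 0.32 (SE) on the log2 scale, with an adjusted p of 0.0037. Pair B gave a log2 difference of 0.65, whereas pairs A, C and D gave 1.94, 1.95 and 1.85. With 1 CPM added in place of 0.1 CPM the estimate was 0.62. Within libraries A and B alone the adjusted p was 0.0494 (limma).

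**Figure D1:**
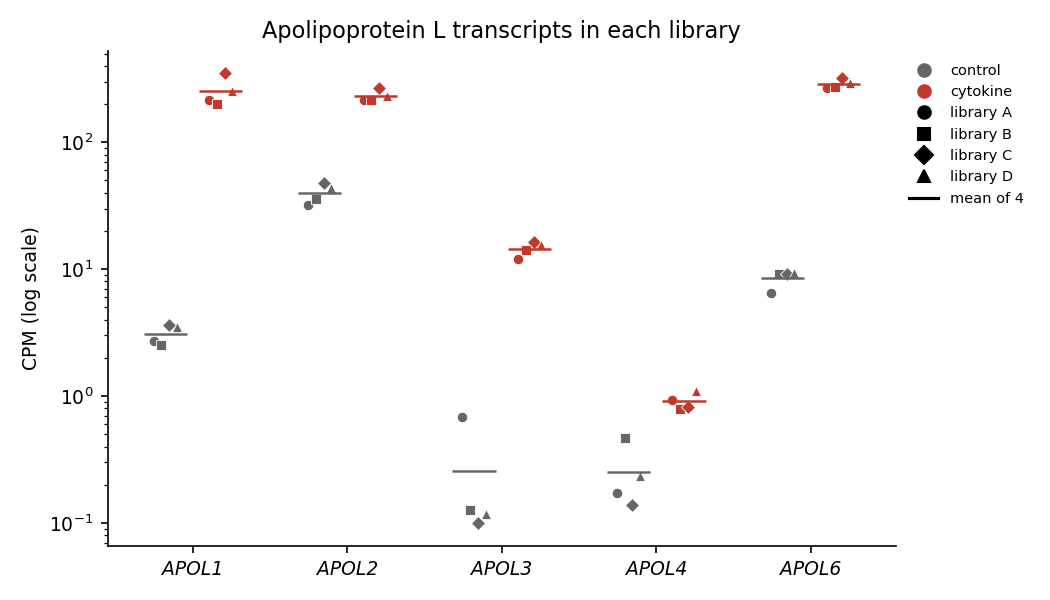
CPM of each APOL gene (log axis) in the 4 control and the 4 cytokine libraries, with a marker shape for each library A to D and a horizontal line at the mean of each group. Every cytokine library lies above every control library in all 5 genes, and APOL3 in control library A (0.684 CPM) stands above the other controls.

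Each gene rose in both sets of libraries. In libraries A and B the log2 fold changes were 6.25 for APOL1, 2.66 for APOL2, 4.97 for APOL3, 1.29 for APOL4 and 5.10 for APOL6. In libraries C and D they were 6.35, 2.44, 6.26, 1.90 and 5.04 in the same order. The difference between the sets was largest for APOL3, at 1.29 (SE 0.65) on the log2 scale. 0 of the 5 interactions passed the test (adjusted p = 0.999 for each, limma), where 0.0303% of all genes did, and the lowest unadjusted p was 0.0717, for APOL3. APOL3 was the member with the greatest spread in its control libraries, and a difference between the sets was not detectable with these libraries.

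**Figure D2:**
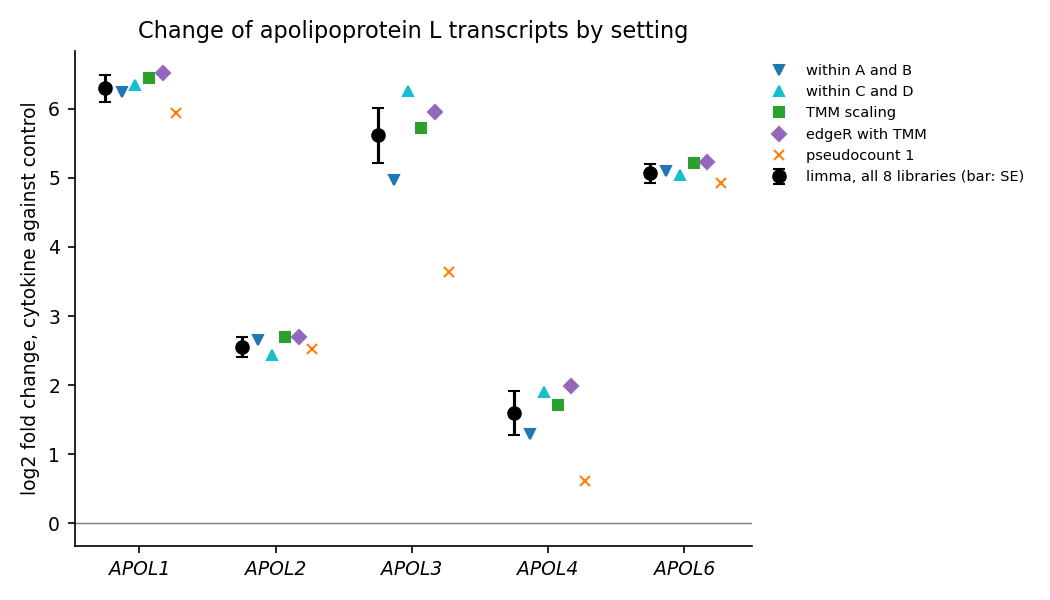
Log2 fold change of cytokine against control cells for each APOL gene, as estimated by limma from all 8 libraries (black, bars show the SE) and under other settings (coloured markers). For APOL1, APOL2 and APOL6 the estimates of each gene lie close together across the settings. Those for APOL3 and APOL4 fall to 3.64 and 0.62 with 1 CPM added.

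The APOL genes did not rise by equal amounts. For each of the 10 pairs of genes the log2 ratio of their CPM + 0.1 values was taken within each library and compared between the groups by a 2-sided exact permutation test of 4 against 4 libraries, whose smallest p is 0.0286. For 7 of the 10 pairs the groups were fully separated (p = 0.0286, adjusted p = 0.0408 over the 10 pairs, exact permutation test). The ratio of APOL1 to APOL2, which are adjacent and transcribed in opposite directions, went from -3.65 ± 0.107 in control to 0.11 ± 0.210 in cytokine libraries (SD, n = 4). That is, APOL1 reads were far fewer than APOL2 reads before treatment and about as many afterwards. The ratio of APOL2 to APOL6 went from 2.20 ± 0.186 to -0.32 ± 0.0445. APOL1 also gained on APOL6, by 1.23, and on APOL4, by 4.70 on the log2 scale. APOL3 gained on APOL4 by 4.02. The ratio of APOL2 to APOL3 shifted by -3.07 and that of APOL4 to APOL6 by -3.47.

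For the other 3 pairs the test was not passed. APOL2 against APOL4 shifted by 0.95 (exact permutation p = 0.0571, adjusted p = 0.0714), and within pairs A to D it shifted by 0.79, 1.93, 0.52 and 0.55, upwards in all 4. APOL1 against APOL3 shifted by 0.68 (exact permutation p = 0.286, adjusted p = 0.317). APOL3 against APOL6 shifted by 0.55 (exact permutation p = 0.543, adjusted p = 0.543). The shifts of the last 2 ratios were above 0 in 3 of 4 pairs of libraries. This test does not use the pairing, and an exact paired test of 4 pairs cannot go below p = 0.125. These 3 ratios all hold a gene with few control reads, and all of them moved with the constant added. With 1 CPM in place of 0.1 CPM the shifts were 1.90, 2.29 and -1.28 in the order given, each with full separation of the groups. Ratios that passed the test and hold APOL3 or APOL4 kept their sign but also changed in size. With 1 CPM the shift was -1.12 for APOL2 against APOL3 and 3.03 for APOL3 against APOL4. It was -4.31 for APOL4 against APOL6 and 5.32 for APOL1 against APOL4.

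**Figure D3:**
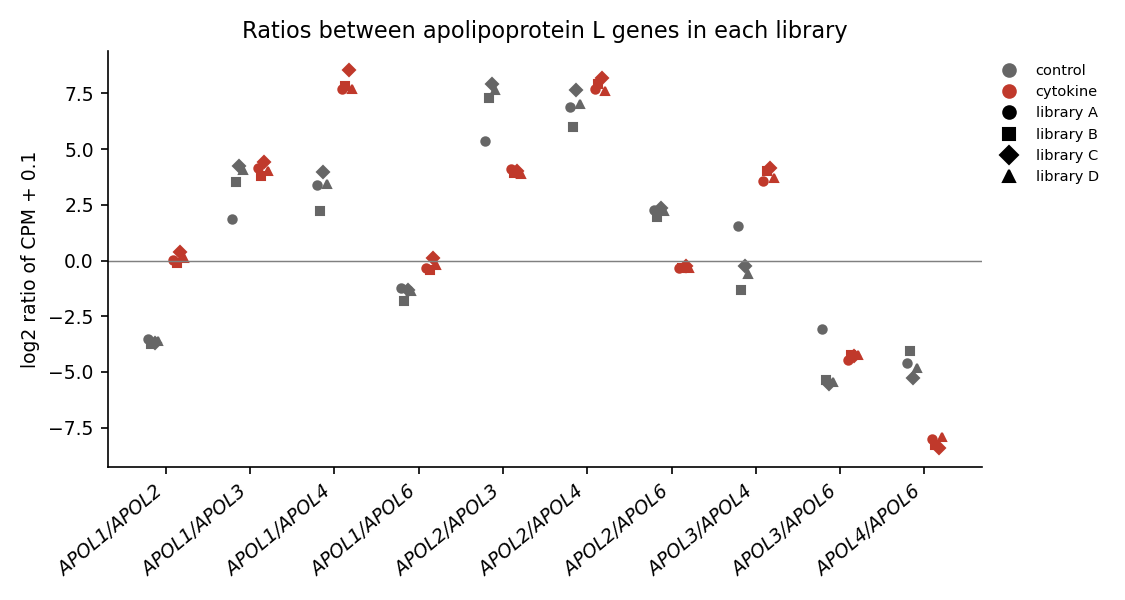
Log2 ratio of CPM + 0.1 between each pair of APOL genes, 1 point per library, with control and cytokine libraries in separate colours. The groups are fully apart for 7 of the 10 pairs, with the APOL1 to APOL2 ratio going from -3.65 to 0.11, and they overlap for APOL1 against APOL3, APOL2 against APOL4 and APOL3 against APOL6.

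To compare levels between the genes, CPM was divided by exon length and rescaled to TPM (transcripts, per the same total in each library). Levels and shares in TPM depend on the exon lengths used, which were 10121 bases for APOL6, 3519 for APOL1 and 3484 for APOL2. In control cells APOL2 was the dominant family member, at 44.7 ± 13.9 TPM (SD, n = 4), or 86.1% ± 0.956 of the summed TPM of the 5 genes. APOL1 and APOL6 followed at 3.44 ± 1.06 and 3.28 ± 0.845 TPM, levels that did not differ beyond their spread. APOL4 and APOL3 were last, at 0.215 ± 0.106 and 0.156 ± 0.157 TPM, and their order was reversed in library A.

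In the means this order changed with cytokines, although in pair A the genes had the same order in the control and the cytokine library. In cytokine libraries APOL1 reached 305 ± 108 TPM and APOL2 278 ± 57.8 TPM, which did not differ beyond their spread. APOL1 was the higher of the pair in libraries C and D and the lower in A and B. APOL6 reached 119 ± 22.6 TPM, APOL3 10.3 ± 2.36 TPM and APOL4 0.874 ± 0.216 TPM, an order seen in all 4 libraries. In TPM, APOL1 moved from rank 10927 to rank 255 among 13391 protein-coding genes, APOL6 from 11013 to 896 and APOL2 from 2788 to 299. APOL3 moved from rank 13282 to 8010, and APOL4 from 13231 to 12589.

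The summed level of the family was 51.8 ± 15.6 TPM in control cells and 714 ± 189 TPM in cytokine-exposed cells (SD, n = 4), a 13.8-fold difference. It ranged from 36.4 to 66.9 TPM in control and from 554 to 941 TPM in cytokine libraries, and C and D were the highest libraries in both groups. Of the gain in summed TPM, 45.6% came from APOL1, 35.3% from APOL2, 17.5% from APOL6, 1.54% from APOL3 and 0.0996% from APOL4. These parts depend on exon length. In reads, APOL6 held 37.8%, 38.8%, 33.4% and 37.1% of the family in cytokine libraries A to D, and APOL1 30.3%, 28.5%, 36.7% and 31.8%. The share of APOL2 in the family total fell to 39.4% ± 2.26, while that of APOL1 went from 6.63% ± 0.491 to 42.1% ± 3.76 and that of APOL6 from 6.41% ± 0.816 to 16.9% ± 1.39.

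**Figure D4:**
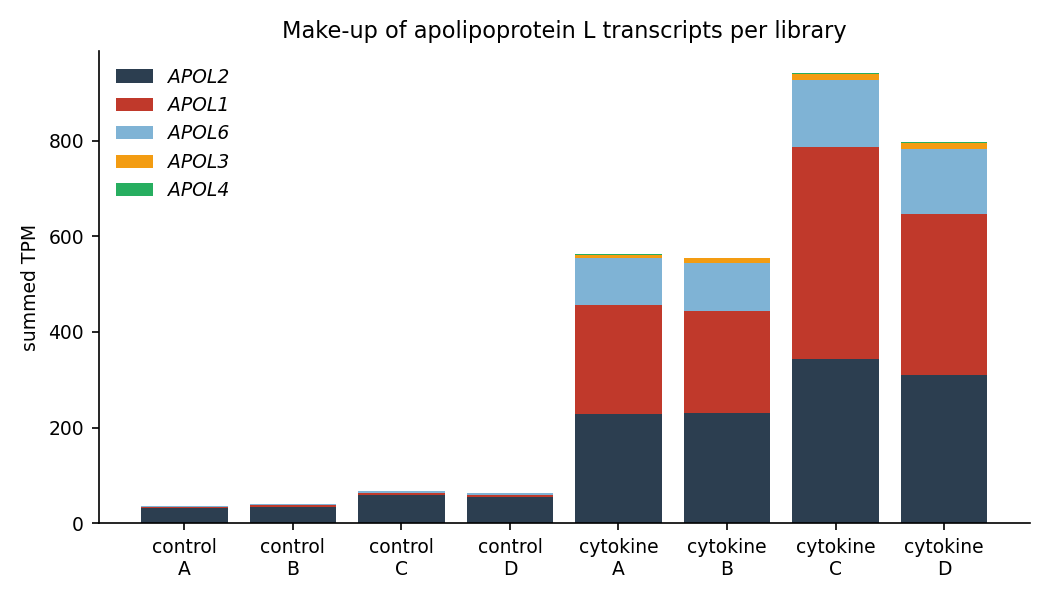
Summed TPM of the 5 APOL genes in each library, as bars from 0 stacked by gene. APOL2 makes up most of each control bar (86.1% on average), whereas APOL1 and APOL2 make up similar parts of the cytokine bars, at 42.1% and 39.4%.

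The members differed in which other protein-coding genes had the most similar profile over the 8 libraries, measured as the Euclidean distance between log2(CPM + 0.1) values centred on their mean. As a description with no test, the nearest to APOL1 were IRF1 (distance 0.754), ISG20 (0.880), ATF3 (0.957), MT2A (1.02) and GBP6 (1.02). IRF1 is a transcription factor induced by IFNγ, and ISG20 an interferon-induced exonuclease. The nearest to APOL6 were PSMB10 (0.422), an immunoproteasome subunit, PARP14 (0.487), HLA-E (0.603), a non-classical MHC class I gene, BTN3A2 (0.675) and ISG15 (0.709), a ubiquitin-like modifier. The nearest to APOL3 were IL32 (1.02), TMEM140 (1.05), MLKL (1.11), the executor of necroptosis, IFITM1 (1.39) and LY6E (1.45).

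Those 5 genes shared the raised value of APOL3 in control library A, which is part of what the distance selects for. Each had its highest control value there, for example MLKL at 0.535 CPM against 0.119 to 0.190 CPM in the other controls and TMEM140 at 1.67 CPM against 0.723 to 1.06 CPM. APOL6 went the other way and was lowest in control library A. The nearest profiles to APOL2 were TRAFD1 (0.350), ABCB1 (0.382), a drug efflux pump, IFIT5 (0.479), SIK1 (0.481) and AREG (0.524). The nearest to APOL4 were PLA2G4C (0.679), STAP2 (0.729), PCDH17 (0.825), USP18 (0.860), a protease that removes ISG15, and SLC38A1. No APOL gene was among the 5 nearest of another. The closest within the family were APOL1 with APOL6 and APOL2 with APOL4, both at 1.85. Distances of genes with very few control reads, such as GBP6, AREG, APOL3 and APOL4, depend on the 0.1 CPM added.

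The components of IFNγ signalling were examined beside the family. Of 15 such genes, 10 were upregulated and 0 were downregulated in limma, edgeR and DESeq2, with 0 lower also at an unadjusted p below 0.05, and the median log2 fold change in limma was 2.05. Over all genes 9.52% were called higher and 17.5% lower in limma. IRF1 went from 11.3 ± 1.05 to 755 ± 157 CPM (log2 fold change 6.03, adjusted p = 8.74e-10, limma), a change similar in size to that of APOL1. The feedback inhibitor SOCS1 went from 1.17 ± 0.352 to 61.7 ± 11.5 CPM (5.62, adjusted p = 1.74e-08, limma). SOCS3 was called higher, with 0 to 2 reads in control libraries and 68 to 271 reads in cytokine libraries. Every control library was below 0.5 CPM for SOCS3. Among the 8 libraries it met the filter of the table through the cytokine libraries, so its call is not independent of that filter. The receptor chains were not called. IFNGR1 was at 28.2 ± 2.52 and 33.6 ± 0.718 CPM, with groups that did not overlap and a log2 fold change of 0.25 (adjusted p = 0.105, limma). Its adjusted p was 0.0104 with TMM scaling, at a log2 fold change of 0.41, and 0.0141 with the library pairs as a block, and its fold change stayed below the threshold in both. IFNGR2 was at 61.5 ± 11.4 and 59.0 ± 12.2 CPM (adjusted p = 0.812, limma).

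Of 19 tested genes between the IL-1β and TNFα receptors and NF-κB, 4 were upregulated and 0 were downregulated in limma, with a median log2 fold change of 0.35. Over all genes 9.52% were called higher and 17.5% lower. At an unadjusted p below 0.05 the counts were 8 and 0, and they were 8 and 0 with edgeR and 9 and 0 with DESeq2. Of all 16525 genes, 2268 were higher and 4677 lower at an unadjusted p below 0.05 in limma. With edgeR 2149 and 1918 of all genes were called higher and lower, and with DESeq2 2360 and 2143. Without control library C, or without control library D, 2 were upregulated, where 1700 and 1502 of all genes were called higher. RELB, an NF-κB subunit, had a log2 fold change of 1.73 (adjusted p = 0.00105), MYD88, an adaptor of the IL-1 receptor, 0.87 (adjusted p = 0.00421) and TNFAIP3, an inhibitor of NF-κB, 0.58 (adjusted p = 0.0392, all limma). The fourth was RELA at 0.52, named after its values were seen because it completes the count. With TMM scaling 8 of the 19 were upregulated, where 13.0% of all genes were.

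Of 11 other apolipoprotein genes tested, 0 were called higher and 1 was called lower by limma, where 9.52% and 17.5% of all genes were. Their median log2 fold change was -0.29, and -0.14 with TMM scaling, where the median of all genes was -0.17 and -0.02. With so few genes these counts do not set the list apart from all genes. At an unadjusted p below 0.05 the counts were also 0 and 1, as they were with edgeR and DESeq2. The counts over all genes in these settings are given above with the IL-1β and TNFα genes. The gene called lower was APOLD1, an endothelial early response gene with an APOL-like domain, at 2.79 ± 0.753 and 1.38 ± 0.318 CPM (log2 fold change -0.96, adjusted p = 0.0139, limma), and it was not called within libraries C and D alone. CLU, the most abundant of this list in CPM, was at 1309 ± 232 and 1228 ± 220.3 CPM. Among genes whose products are described to bind or act with APOL proteins, NCS1, PI4KB, VAMP8 and APOA1 were tested, and 0 of these 4 were called in limma, against 1 at an unadjusted p below 0.05, 1 with edgeR and 1 with DESeq2. So few genes cannot be set apart from all genes, of which limma called 9.52% higher and 17.5% lower. The calcium sensor NCS1, a partner of APOL3, was at 48.9 ± 7.14 and 68.5 ± 21.3 CPM (log2 fold change 0.45, adjusted p = 0.0985, limma), and it passed with TMM scaling (0.60, adjusted p = 0.0394).

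The 5 genes lie on chromosome 22 of GRCh38 (GENCODE 29). APOL6 spans 35648395 to 35668409 on the plus strand. The other 4 are grouped further along, with APOL3 at 36140330 to 36166177, APOL4 at 36189124 to 36204840 and APOL2 at 36226203 to 36239954, all on the minus strand, and APOL1 at 36253010 to 36267530 on the plus strand. The starts of APOL2 and APOL1 are 13.056 kb apart. No other annotated gene overlaps the span of any of them. Of the exon sequence of each gene, between 0.140% (APOL3) and 3.91% (APOL1) of windows of 50 bases occur exactly in another gene, and 0 windows of 100 bases do.

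Of 11 other listed genes with a start within 500 kb of an APOL start, 0 were called higher and 4 were called lower by limma. Over all genes 9.52% were called higher and 17.5% lower. The median log2 fold change of the 11 neighbours was -0.41. At an unadjusted p below 0.05 the counts were 1 higher and 5 lower, and edgeR and DESeq2 each called 0 higher and 3 lower. Within libraries C and D alone 2 neighbours were called, where 1193 of all genes were called higher and 2190 lower. MYH9, a non-muscle myosin heavy chain whose start lies 135.057 kb from that of APOL1, was at 213 ± 30.1 and 259 ± 28.8 CPM (log2 fold change 0.29, adjusted p = 0.136). RBFOX2, a splicing regulator that lies between APOL6 and APOL3, was at 117 ± 7.53 and 144 ± 16.5 CPM (0.29, adjusted p = 0.0836). The groups of RBFOX2 did not overlap, although its difference did not pass the test. The replication helicase subunit MCM5 fell by 1.26 (adjusted p = 4.84e-05), FOXRED2 fell by 0.86 (adjusted p = 0.000437), LINC01399 fell by 1.34 (adjusted p = 0.0139) and the calcium channel subunit CACNG2 fell by 0.79 (adjusted p = 0.0293) on the log2 scale, all in limma, and CACNG2 was not called with TMM scaling (adjusted p = 0.0949). LINC01399 was low in both groups, at 0.731 ± 0.246 and 0.232 ± 0.102 CPM. The size of its fall therefore depends on the 0.1 CPM added. Every cytokine library was below 0.5 CPM for LINC01399. Among the 8 libraries it met the filter through the control libraries, so its call is not independent of that filter. HMGXB4, TOM1, RASD2, TXN2 and EIF3D were not called, with log2 fold changes from -0.45 to 0.21.

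**Figure D5:**
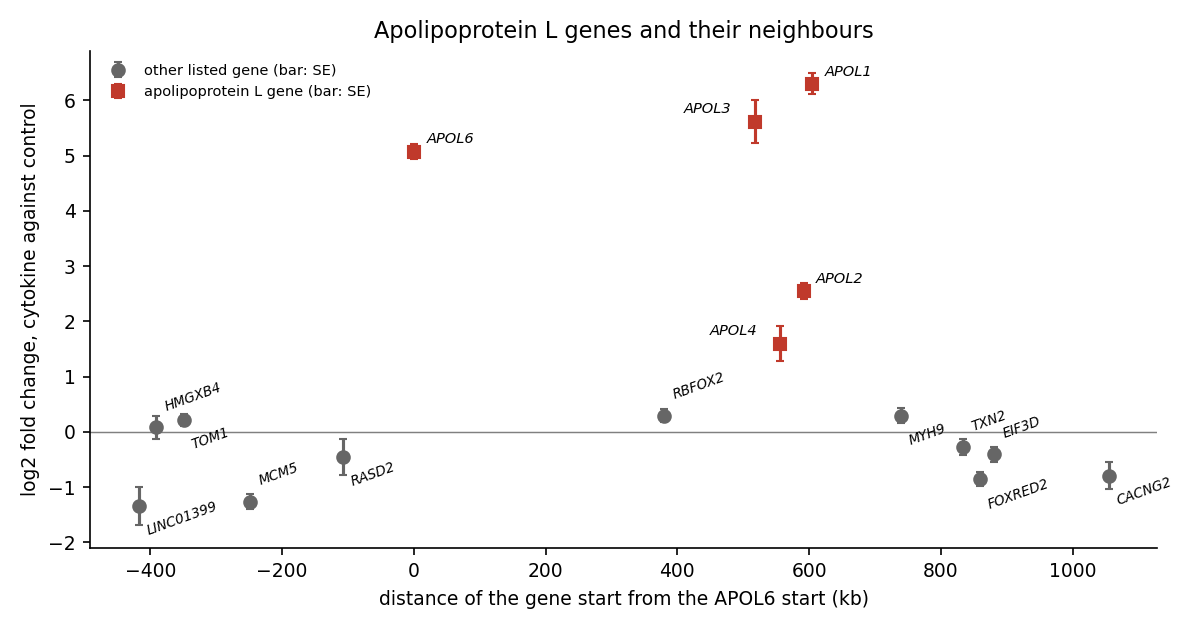
Log2 fold change of cytokine against control cells for the 5 APOL genes (red squares) and the 11 other listed genes with a start within 500 kb (grey points), against the distance of each gene start from that of APOL6 in kb, with bars for the SE. The APOL genes lie between 1.60 and 6.30, and every other gene lies at or below 0.29.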

How the data were processed

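Sequencing reads of 4 control and 4 cytokine libraries were cleaned with SOAPnuke, aligned to GRCh38 with TopHat2 2.1.1 and counted on Ensembl 107 genes with HTSeq 0.9.1 by the authors, who deposited CPM values made with edgeR for genes at 0.5 CPM or more in at least 4 samples. In the 8 libraries used, 371 listed genes were above 0.5 CPM in fewer than 4. Another 4 columns of values in the table were not used. Every CPM value was a whole number of reads (tolerance 0.01 reads). The CPM totals include reads on genes outside the table, 20.1% to 26.6% of each library.

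The main test was limma 3.58.1 under R 4.3.3, fitted to log2(CPM + 0.1) of all 16525 genes, with the intensity trend switched on and no block. It takes the place of the edgeR quasi-likelihood test of the study because CPM are not counts, and edgeR 4.0.16 and DESeq2 1.42.0 on recovered reads were alternatives. TPM were computed from exon lengths of GENCODE 29, in which 16167 listed genes had an entry. Other steps used matplotlib 3.10.9, scipy 1.17.1, numpy 2.4.6 and pandas 2.3.3 under Python 3.11.15. Scripts were tested on simulated data. Alternatives were other scalings, constants of 0.5 and 1 CPM, a filter at a mean of 1 CPM, no intensity trend, a replicate block, each set of libraries alone and each library left out.

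The members and gene lists were chosen with earlier results of these data known. Named genes were all members, the called genes of each list with the 3 largest rises and falls, IFNGR1, IFNGR2 and IRF1, the neighbours, and the 5 most similar profiles of each member. Some genes that this rule covers, mostly cell type markers, are not reported here. A planned motif search in the promoters of these genes was not run. As a check of the pairing, which comes from the column names, the deviations of both libraries of a pair from their group means were correlated over all genes (0.46 for A, 0.50 for B, 0.75 for C and 0.68 for D). Control B with cytokine A gave 0.49 and control A with cytokine B gave 0.45, so the check cannot tell pairs A and B apart. Control D with cytokine C gave 0.09 and control C with cytokine D gave 0.10. The lowest chi-square per gene between libraries of a group was 5.88, so no library was a copy of another. Libraries A and B were the most alike in each group, at 13.2 in control and 5.88 in cytokine. Every other comparison within a group gave 66.3 or more. The tests without a block treat the libraries of a group as separate cultures.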

Additional observations from a re-analysis of the deposited data

Results flagged for a closer look

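In 3 of 52 groups of 4 libraries examined, over 26 genes, the gap between the most extreme library and its nearest neighbour was a larger part of the group's range than Dixon's critical value at the 95% level. Chance gives such a gap in about 1 of 20 groups, so 3 is near what chance gives. In APOL3, control library A (0.684 CPM) was high, with a gap of 0.953 of the range. In APOL6, the same library (6.52 CPM) was low, with a gap of 0.947. In SOCS1, control library B (1.69 CPM) was high, with a gap of 0.838.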

How the results depend on the processing

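All 5 APOL genes remained called higher under each alternative in which they could be tested. APOL4 had no value with the filter at a mean of 1 CPM. Their log2 fold changes ranged over all alternatives from 5.94 to 6.53 for APOL1, 2.44 to 2.71 for APOL2, 3.64 to 6.26 for APOL3, 0.62 to 2.06 for APOL4 and 4.93 to 5.24 for APOL6. The highest adjusted p was 0.0494 (limma), for APOL4 within libraries A and B. Library pairs A to D, read from the column names, served as the replicate block. With the block 5852 genes were called in limma against 4470 without it, and 5301 in edgeR with TMM against 4067, and no call of an APOL gene changed.

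Of the ratios between APOL genes, APOL1 against APOL3 shifted by 1.76 with 0.5 CPM added and 2.29 with 1 CPM, APOL2 against APOL4 by 1.61 and 1.90, and APOL3 against APOL6 by -0.64 and -1.28, a change of sign, all with an adjusted p of 0.0286 (exact permutation test). The same 3 ratios were not called with 0.1 CPM. Within libraries C and D 2 neighbours and 0 other apolipoprotein genes were called, against 4 and 1 in all libraries. Of all genes, 3383 were called within libraries C and D, against 4470 in all libraries. Of the IL-1β and TNFα genes, 8 were called with TMM, with median-of-ratios scaling and with edgeR, 9 with DESeq2 and with the replicate block in edgeR, and 2 to 5 with a library left out, the lowest without control library C or D. Of the genes for APOL partners, 1 was called with either scaling, edgeR, DESeq2 and the block in edgeR. Of all genes, 4087 were called with TMM, 4083 with median-of-ratios scaling, 4067 with edgeR and 4503 with DESeq2. With the replicate block in edgeR 5301 of all genes were called, and with a library left out 3899 to 4339. With a replicate block nested in the sets of libraries, 68 genes differed between the sets, against 5 without it. The cause was not tested. Few control reads limit the size given for APOL3 and APOL4.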
